A study of Mus musculus with 58 samples.

Results

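Leak and inward rectifier potassium channel genes were examined in single parvalbumin (PV) cells from mice. The cells lay in the ventral subiculum, the output region of the ventral hippocampus. The 9 genes were taken by name from the deposited count table of 25648 genes: Kcnk1, Kcnk2, Kcnk3, Kcnk9 and Kcnk10 of the K2P family, and Kcnj3, Kcnj6, Kcnj9 and Kcnj10 of the Kir family. All 9 had a row in the table, and their level order and their relation per cell to the labels rm and vrest were described over the 54 cells labelled Pass in quality control, of 58 in all. PV cells are inhibitory interneurons, and every animal here carried PV-Cre and Ai9, a reporter that Cre recombinase under the parvalbumin gene switches on, so that any cell with past or present Cre activity can be marked. Each library holds the cytosol of 1 cell, taken up by patch pipette. The Pass cells were 27 from female mice, 17 at 40 days of age and 10 at 42 days, and 27 from male mice, 14 at 35 days and 13 at 36 days. The labels give 3 female and 4 male animals but do not tie cells to animals, so counts were summed over the cells of each sex and age into 4 pools, and sex cannot be told apart from age. Most cells carry the numbers rm and vrest, whose units the labels do not give. The names are those commonly used for membrane resistance and resting potential. Among the Pass cells rm was given for 49 cells (lowest 88, median 266, highest 805) and vrest for 49 cells (lowest -72, median -58, highest -48).

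K2P channels carry most of the potassium leak that holds a neuron at rest. Each subunit has a pair of pore loops, and a channel is made of a pair of subunits. Kir channels have 1 pore loop per subunit and assemble from 4, and they pass potassium inward more readily than outward. The G protein gated members (GIRK channels, encoded by Kcnj3, Kcnj5, Kcnj6 and Kcnj9) open when G protein beta and gamma subunits are released by receptors such as the GABA-B receptor, which slows firing. Kcnj10 encodes Kir4.1, best known as the channel with which astrocytes and oligodendrocytes take up potassium. More open channels of either family lower the input resistance of a cell and draw its resting potential toward the potassium equilibrium.

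The pore loop is what all 9 proteins share, and the bases that encode it are shown because they hold what makes these channels selective for potassium and how the 9 genes differ there. Each stretch holds 30 bases of coding sequence on the strand of the gene (GRCm38, GENCODE vM21). The last 3 codons of the selectivity filter, which read glycine, an aromatic residue or leucine, glycine, are in capitals. For the K2P genes the second pore loop is given, because it lies within 1 exon, while the first is split by an intron in all 5.
Kcnk1, chr8:126025320-126025349, plus strand: tccctgagcaccatcGGCCTGGGGgactat
Kcnk3, chr5:30622193-30622222, plus strand: accctcaccaccatcGGCTTCGGCgactat
Kcnk9, chr15:72512713-72512742, minus strand: acattgactactataGGGTTCGGCgatttt
Kcnk2, chr1:189256575-189256604, minus strand: actctgacgaccattGGATTTGGAgactac
Kcnk10, chr12:98440599-98440628, minus strand: acgctgaccacagtaGGCTTTGGTgatttt
Kcnj3, chr2:55437618-55437647, plus strand: accgaggccaccatcGGCTATGGCtaccgc
Kcnj6, chr16:94832771-94832800, minus strand: acagaaaccaccatcGGTTATGGCtaccgg
Kcnj9, chr1:172326178-172326207, minus strand: acggagaccaccatcGGCTATGGGcaccgg
Kcnj10, chr1:172369293-172369322, plus strand: tcccagaccaccatcGGCTATGGCttccgc
In the second filter of Kcnk1 the middle codon in capitals is CTG, for leucine, where the other 4 K2P genes have a codon for phenylalanine. The 4 Kir genes all have TAT, for tyrosine. The longest run of identical coding bases between any of the 9 genes was 20, between Kcnk3 and Kcnk9. Of all 50-base stretches of the exons, 0 were shared with another gene of the count table for Kcnk1, Kcnk2, Kcnk10, Kcnj3, Kcnj6 and Kcnj9, and at most 1.59% (Kcnj10) for the other 3 genes. The exons of 6 of the 9 genes overlap a gene on the opposite strand that is not in the count table. Kcnj3 shares 1621 exon bases with Gm26794, while Kcnk2 shares 604, Kcnj6 380, Kcnk3 229, Kcnk1 179 and Kcnj9 172 bases with such a gene. Whether the counting used strand is not stated in the labels, so reads of those genes could be counted with these 6 members.

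The Pass cells held between 2.05 M and 52.3 M counts each (median 11.5 M), and levels are given in CPM, the count divided by the cell's own total in M. The PV label was checked against 8 markers, which all had a median of at least 1 CPM. Gad1, which makes GABA, had a median of 3560 CPM and Pvalb a median of 86.9 CPM (lowest 1.18, highest 788). In 20 cells, 6 female and 14 male, Slc17a7 (glutamatergic neurons), Sst or Vip (other interneurons) lay above Pvalb, and differences that changed sign without these cells are given at the end. All 7 endothelial and mural markers had a median of 0. The summed astrocyte markers had a median of 797 CPM (lowest 96.1, highest 5227), most of it Aldoc. Of the 10 astrocyte markers, Gfap, Aqp4, Gja1, Gjb6 and Aldh1l1 had medians under 1 CPM. Besides Aldoc, Slc1a2 had a median of 49.3 CPM and Slc1a3 of 16.5 CPM. Slc4a4 and Sox9 also had medians above 1 CPM. The medians of the summed markers of the other lists were 320 CPM for other interneurons, 124 CPM for excitatory neurons, 483 CPM for oligodendrocytes, 19.5 CPM for their precursors, 202 CPM for microglia and 77.2 CPM for blood.

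The 9 genes spanned a wide range, from Kcnk1, abundant in every cell, to Kcnk9, which had a count in 5 of 54 cells. To compare genes, CPM was divided by the length of the exons in kb. Kcnk1, Kcnk3, Kcnj9 and Kcnj3 were the upper 4 in that order, Kcnk2 followed, and Kcnj10, Kcnj6, Kcnk10 and Kcnk9 had medians at or near 0. On this scale Kcnk1 had a median of 101 CPM per kb, Kcnk3 of 24.3, Kcnj9 of 13.1, Kcnj3 of 9.52 and Kcnk2 of 2.17 CPM per kb. The medians of the remaining 4 genes were 0.0853 for Kcnj10, 0.0654 for Kcnj6, 0.0134 for Kcnk10 and 0 CPM per kb for Kcnk9. Between neighbours in this order the ranges of the 4 pool medians did not overlap for Kcnk1 and Kcnk3, Kcnk3 and Kcnj9, Kcnj3 and Kcnk2, and Kcnk2 and Kcnj10. They overlapped for Kcnj9 and Kcnj3 and for each neighbouring pair among the lowest 4 genes. Kcnk9, with a median of 0 in every pool, lay below both Kcnj10 and Kcnj6 without overlap. The order was that of a chosen list of genes and was described without a test.

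**Figure D1:**
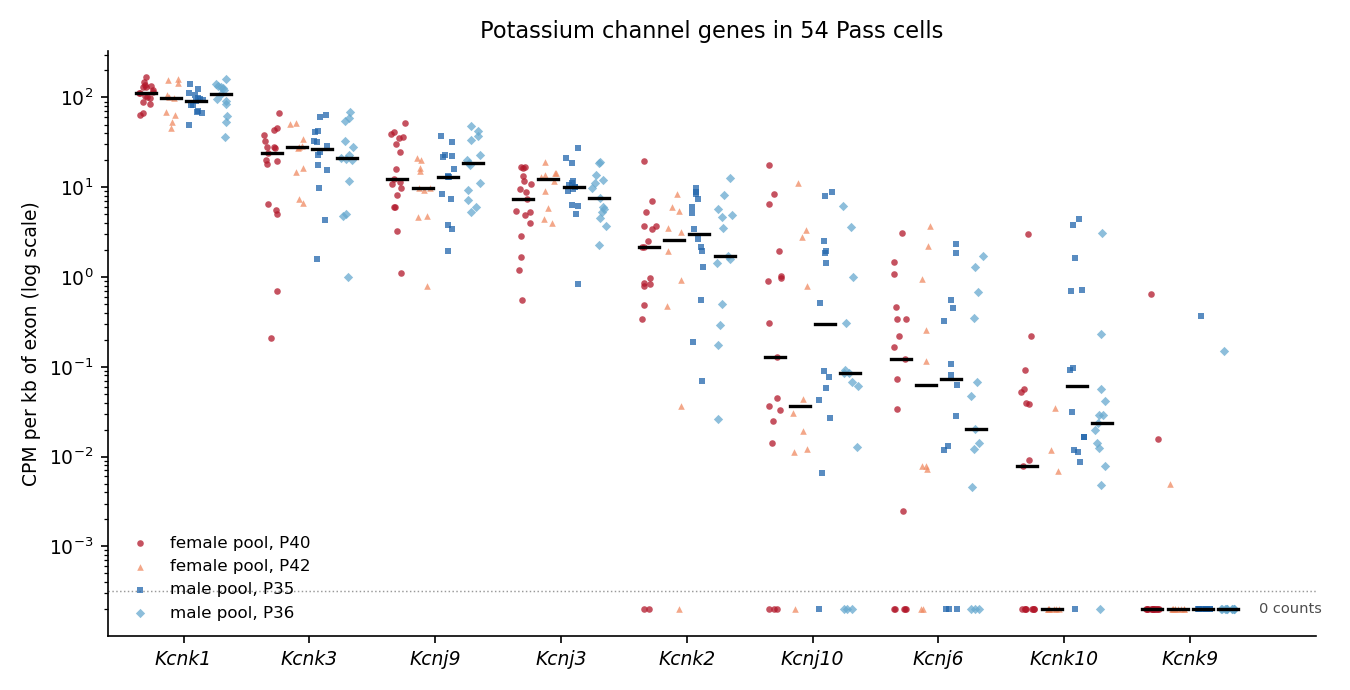
CPM per kb of exon (log axis) of the 9 genes in the 54 Pass cells, 1 point a cell, by pool of sex and age, with the female pools left of the male pools. Black bars are pool medians and points under the dotted line are cells with 0 counts. Kcnk1 sits highest with the least spread, and most cells lie at or near 0 for Kcnk10 and Kcnk9.

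Kcnk1 encodes TWIK-1, a K2P subunit whose own currents are small in many cells. It was present in every cell, with 80.3 CPM in the lowest, 226 CPM in the median and 375 CPM in the highest cell. Its pool medians averaged 104 ± 9.85 CPM per kb (SD, n = 4 pools). It was the highest of the 9 genes per kb in 54 of 54 cells and made up a median of 62.1% of their summed level per kb (lowest cell 39.8%, highest 90.6%). Its median per kb lay above those of 97.8% of the 22448 genes with a known length. It was also even from cell to cell: the coefficient of variation was 31.9%, against a median of 41.1% over the 2128 genes with a median of at least 100 CPM, of which 22.1% had a lower one.

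Kcnk3 and Kcnk9 encode the acid-sensitive subunits TASK-1 and TASK-3, which are closed by receptors coupled to Gq. Kcnk3 had 0.83 CPM in the lowest, 96.5 CPM in the median and 271 CPM in the highest cell, and its pool medians averaged 24.8 ± 3.00 CPM per kb (SD, n = 4 pools). It reached 1 CPM in 53 of 54 cells and 100 CPM in 26. Its spread was wider than that of Kcnk1, with a coefficient of variation of 69.6%. Kcnk9 reached 1 CPM in 3 of 54 cells (5.56%, exact 95% interval 1.16 to 15.4%, counting error only). These were female cell 27 with 7.98 CPM, male cell 5 with 4.57 CPM and male cell 26 with 1.87 CPM. Male cell 5 had 3298 CPM of Sst against 2.49 CPM of Pvalb. Kcnk3 lay above Kcnk9 in 54 of 54 cells.

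Kcnk2 and Kcnk10 encode TREK-1 and TREK-2, subunits opened by stretch, heat and lipids. Kcnk2 had 0 CPM in the lowest, 10.7 CPM in the median and 97.2 CPM in the highest cell, and reached 1 CPM in 46 of 54 cells (85.2%, exact 95% interval 72.9 to 93.4%) and 10 CPM in 29. Its highest cells were spread over 3 pools: female cell 2 with 97.2 CPM, male cell 13 with 63.2 CPM and male cell 6 with 48.6 CPM. Kcnk10 had a median of 0.118 CPM and reached 1 CPM in 9 of 54 cells (16.7%, exact 95% interval 7.92 to 29.3%), 2 female and 7 male. It was concentrated in few cells, since 5 cells held 85.4% of its summed CPM, led by male cell 18 with 38.5 CPM and male cell 21 with 33.6 CPM. All 9 cells with Kcnk10 at 1 CPM also had Kcnk2 at 1 CPM or more, as did 46 of all 54 cells.

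Among the GIRK genes, Kcnj3 and Kcnj9 had at least 1 CPM in every cell, and Kcnj6 had it in 21 of 54 cells and at least 1 count in 41. Kcnj3 encodes GIRK1, which needs a partner subunit to reach the membrane. It had 2.92 CPM in the lowest, 49.7 CPM in the median and 142 CPM in the highest cell. Kcnj9 encodes GIRK3, a subunit found in mixed channels and linked to their trafficking, and it had 3.36 CPM in the lowest, 56.4 CPM in the median and 226 CPM in the highest cell. Per kb, Kcnj9 lay above Kcnj3 in 39 of 54 cells, with a median ratio of 1.75 (lowest 0.0415, highest 20.8). The ratio varied through both genes, whose levels had a Spearman rho of 0.085 over 54 cells.

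Kcnj6 encodes GIRK2, the subunit that can form channels alone and that dominates in many neurons. It had a median of 0.499 CPM and a highest value of 27.9 CPM in female cell 19, and reached 1 CPM in 21 of 54 cells (38.9%, exact 95% interval 25.9 to 53.1%). Of the summed level per kb of Kcnj6 and Kcnj9, Kcnj6 made up a median of 0.407% (highest 82.3%). It lay above Kcnj9 in 1 of 54 cells, female cell 19, which also had the highest rm label of all (805). The remaining GIRK gene, Kcnj5, reached 1 CPM in 1 cell.

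**Figure D2:**
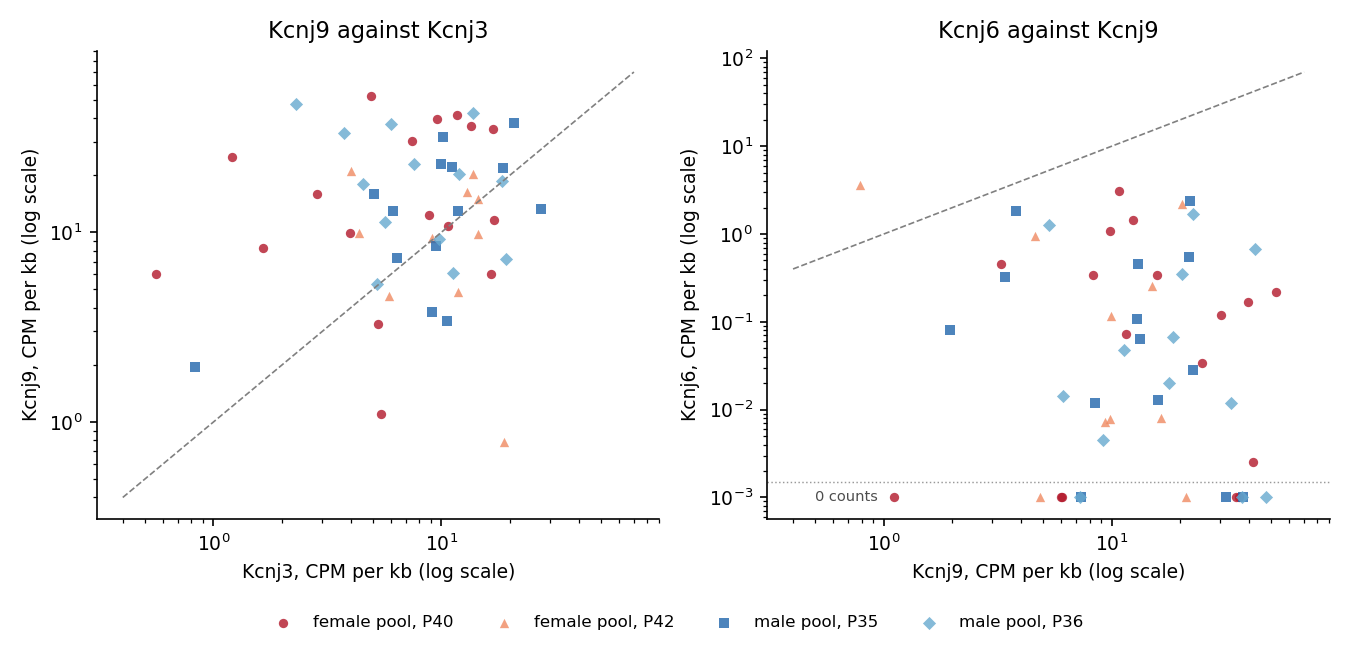
GIRK genes in the 54 Pass cells, 1 point a cell, in CPM per kb on log axes, with dashed lines where both genes are equal. Left, Kcnj9 lies above Kcnj3 in 39 of 54 cells. Right, Kcnj6 lies below Kcnj9 in all cells but 1, and points under the dotted line have 0 counts of Kcnj6.

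Kcnj10, the glial Kir4.1 gene, had a median of 0.461 CPM and reached 1 CPM in 23 of 54 cells (42.6%, exact 95% interval 29.2 to 56.8%) and 10 CPM in 13. The highest were female cell 21 with 95.8 CPM, female cell 20 with 59.9 CPM and male cell 20 with 48.5 CPM. In the 23 cells with Kcnj10 the summed astrocyte markers had a median of 885 CPM (356 to 3536 CPM), against 773 CPM (96.1 to 5227 CPM) in the 31 cells without it. The summed oligodendrocyte markers had a median of 763 CPM (97.4 to 7638 CPM) in cells with Kcnj10, against 402 CPM (140 to 12822 CPM) in cells without it. The summed markers of oligodendrocyte precursors had a median of 31.2 CPM (0.111 to 652 CPM) in cells with Kcnj10, against 7.82 CPM (0.306 to 611 CPM) in cells without it. Higher medians in cells with Kcnj10 were not particular to these lists. They were also found for PV markers (6415 against 5232 CPM), blood (91.7 against 51.4 CPM) and microglia (240 against 197 CPM). Excitatory (130 against 122 CPM) and endothelial and mural markers (0.337 against 0.218 CPM) were higher too, and other interneurons lower (308 against 342 CPM). The ranges overlapped for each list, and the part of glial RNA in the Kcnj10 level was not tested.

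Levels of the 9 genes showed weak relations to each other from cell to cell. Over the 36 pairs the Spearman rho furthest from 0 was -0.37, between Kcnk1 and Kcnk10, a gene at or near 0 in most cells. Kcnk1 and Kcnk3 had a rho of 0.20, and Kcnk3 and Kcnj9 of 0.17. These values are a description over 54 cells that share animals and depths. With the summed PV markers, led by Gad1 (median 3560 CPM), Kcnj3 had a rho of 0.40, Kcnk2 of -0.26, Kcnk3 of 0.25 and Kcnk1 of 0.22. With the summed excitatory markers, led by Camk2a (median 93.3 CPM), Kcnk3 had a rho of -0.44 and Kcnj3 of -0.39. Kcnk2 had a rho of 0.33 with the summed markers of other interneurons and of -0.38 with those of microglia. The part of other cells' RNA in these levels was not tested.

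For the 5 genes with at least 1 CPM in at least 27 cells, the most similar of 10134 genes by Spearman rho over the 54 cells were named. Kcnk1 was most like Cited2 (rho 0.47) and Pak6 (0.46). Kcnk3 was most like Efhd2 (0.61) and Pacsin2 (0.56), and Kcnk2 was most like Ahi1 (0.52) and Fcho1 (0.49). Kcnj3 was most like Gabrg3, a GABA-A receptor subunit (0.55), and Aak1 (0.52). Kcnj9 was most like Dixdc1 (0.56) and Mpg (0.52). These are the upper ends of 10134 values for each gene, and no test was made of them.

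The other genes of both families were mostly low. Of 9 other K2P genes, 1 had a median of at least 1 CPM: Kcnk12 (THIK-2), with 6.35 CPM per kb, while Kcnk13 had 0.147 CPM per kb. Of 13 other Kir genes and partners of ATP-sensitive channels, 2 had a median of at least 1 CPM: Kcnj11, the pore of the ATP-sensitive channel, with 4.23 CPM per kb, and its receptor subunit Abcc8 with 1.33 CPM per kb. Of 25 receptors and regulators coupled to GIRK channels, 16 did, led by the G protein subunits Gnb5 with 112 CPM per kb and Gnb1 with 46.8 CPM per kb.

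The first comparison asked whether these genes differ between the sexes. None of the 8 members tested passed the test, and Kcnk9 was too low to be tested. In edgeR's quasi-likelihood test on the pool sums, 0 of the 8 genes passed an adjusted p of 0.05 and 0 had an unadjusted p under 0.05, where 2 of 14933 genes (0.0134%) passed and 823 (5.51%) had an unadjusted p under 0.05. The 2 genes were Ddx3y and Eif2s3y, both on the Y chromosome and higher in male pools. Kcnk1 had 246 and 232 CPM in the female P40 and P42 pools, against 204 and 256 CPM in the male P35 and P36 pools, so the sexes overlapped (log2 difference 0.056, SE 0.19, adjusted p = 0.999). Kcnk3 had 89.5 and 99.4 CPM in the female pools, against 105 and 106 CPM in the male pools, a small gap without overlap (log2 difference -0.16, SE 0.22, adjusted p = 0.994). This gap depended on the cells included. The log2 difference was 0.025 (SE 0.20) without female cell 3, the cell with the most counts. It was -0.82 (SE 0.27, adjusted p = 0.887 by edgeR) without the 20 cells in which Slc17a7, Sst or Vip lay above Pvalb.

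The GIRK genes overlapped between the sexes. Kcnj3 had 51.9 and 61.5 CPM in the female pools, against 53.4 and 50.2 CPM in the male pools (log2 difference 0.13, SE 0.28). Kcnj9 had 108 and 43.3 CPM in the female pools, against 65.4 and 87.8 CPM in the male pools (log2 difference -0.021, SE 0.42). The spread between the pools of 1 sex was wider for Kcnj9 than the gap between the sexes. Kcnk2 was lower in both female pools (15.3 and 12.9 CPM) than in both male pools (23.4 and 18.0 CPM), and Kcnj10 was higher in both female pools (12.8 and 11.4 CPM) than in both male pools (10.7 and 4.79 CPM). With Kcnk3 this made 3 of 8 genes whose pools did not overlap, where 33.9% of all genes tested did not. Kcnk10 had the widest interval, with a log2 difference of -2.05 (SE 1.78).

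**Figure D3:**
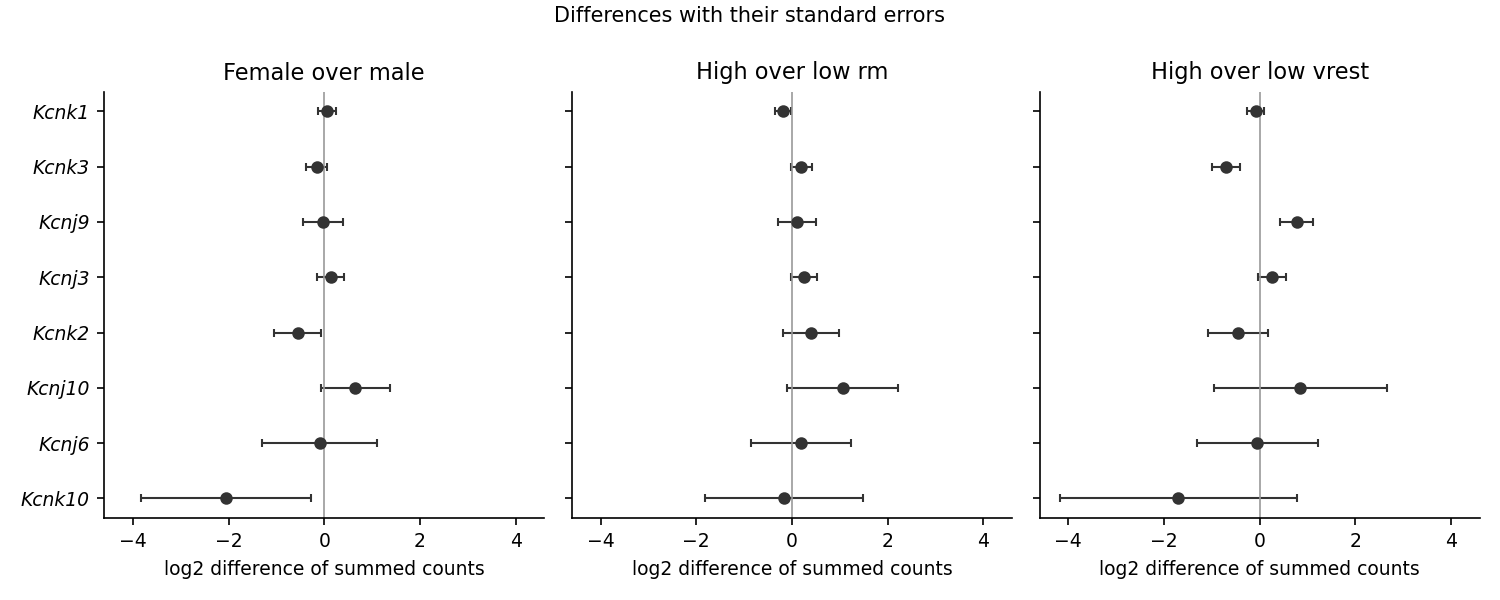
Log2 differences of summed counts (points) with their standard errors (bars) for the 8 tested genes, from edgeR's quasi-likelihood fits, for female over male pools, high over low rm and high over low vrest. Kcnk1 has the narrowest bars and lies near 0 in each panel. In the vrest panel Kcnk3 lies at -0.71 and Kcnj9 at 0.77, neither past an adjusted p of 0.05.

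The second comparison asked whether the genes differ with rm. Cells were split within each pool at the median of rm, which gave 23 cells with high rm and 26 with low rm, summed into 8 sums and fitted with the pool as a block. None of the 8 genes passed: 0 had an adjusted p under 0.05 where 1 of 13985 genes did (0.00715%), and 0 had an unadjusted p under 0.05 where 5.34% of genes did. The gene that passed was Vip, lower in high-rm cells, which reached 1 CPM in 20 cells but had a median of 0.145 CPM and a highest value of 2329 CPM. Its sums were 2.06 against 83.8 CPM in male P35 and 6.36 against 645 CPM in male P36, high against low rm. In the female pools they were at most 1.89 CPM. Male cell 21, a low-rm cell of male P35, had 809 CPM. Without male P36, or without the 20 cells with Slc17a7, Sst or Vip above Pvalb, 0 genes passed. Kcnk1 had 250, 259, 157 and 231 CPM in the high-rm cells of the female P40, female P42, male P35 and male P36 pools, against 268, 237, 227 and 273 CPM in the low-rm cells. High-rm cells were thus lower in 3 of 4 pools, with a log2 difference of -0.19 (SE 0.17, adjusted p = 0.979 by edgeR). Pvalb was lower in high-rm cells in all 4 pools. Its log2 difference was -1.38 (SE 0.46, unadjusted p = 0.0149, adjusted p = 0.907 by edgeR). Those of the other PV markers ran from -0.47 for Lhx6 to 0.49 for Tac1. Summed PV markers had medians of 5683 against 5511 CPM, high against low rm. Among other interneuron markers, Sst was higher (1.61) and Cck lower (-0.73) in all 4 pools, neither past the test. The part of cell identity in the rm results was not tested.

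Kcnj3 was the 1 gene of 8 that lay on the same side in all 4 pools, where 13.9% of all genes tested did. It had 56.8, 69.8, 62.0 and 49.999 CPM in high-rm cells, against 47.4, 44.6, 58.7 and 49.3 CPM in low-rm cells, in the same order of pools. The log2 difference was 0.25 (SE 0.27, adjusted p = 0.986 by edgeR), within its error. Kcnj9 split by pool, with 114, 27.4, 74.4 and 136 CPM in high-rm cells, against 125, 57.6, 71.4 and 44.0 CPM in low-rm cells. Its log2 difference was 0.11 (SE 0.40). The other genes had log2 differences of 0.19 for Kcnk3 (SE 0.22), 0.40 for Kcnk2 (SE 0.58), 0.18 for Kcnj6 (SE 1.04), -0.17 for Kcnk10 (SE 1.65) and 1.06 for Kcnj10 (SE 1.16). Of the 5 cells with any count of Kcnk9, 4 were among the 23 high-rm cells, against 0 of the 26 low-rm cells. For those 26 cells this allows a share of up to 11.5% with a count. Among the 4, female cell 29 held 3 counts and female cell 20 held 1. At 1 CPM or more it was 2 high-rm cells against 0 low-rm cells. With all cells thinned to an equal total, 2 of 54 had a count. Kcnk9 was left out of the test.

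The third comparison asked whether the genes differ with vrest, split the same way into 24 cells with high (less negative) and 25 with low vrest. No gene passed: 0 of the 8 members and 0 of 13970 genes (0%) had an adjusted p under 0.05 in edgeR, and 470 genes (3.36%) had an unadjusted p under 0.05. Those 470 include Kcnk3 and Kcnj9, in opposite directions. In DESeq2, which called 141 genes, 0 of the 8 members passed. Kcnk3 had 46.3, 86.4, 105 and 86.1 CPM in the high-vrest cells of the female P40, female P42, male P35 and male P36 pools, against 143, 153, 101 and 117 CPM in the low-vrest cells. It was lower in high-vrest cells in 3 of 4 pools, with a log2 difference of -0.71 (SE 0.29, unadjusted p = 0.0375, adjusted p = 1 by edgeR). Over single cells the ranges overlapped: high-vrest cells had 0.83 CPM in the lowest, 79.6 in the median and 236 CPM in the highest cell, against 6.35, 112 and 271 CPM in low-vrest cells.

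Kcnj9 had 145, 38.7, 99.6 and 116 CPM in the high-vrest cells of the same pools, against 63.5, 51.2, 37.1 and 65.6 CPM in the low-vrest cells. It was higher in high-vrest cells in 3 of 4 pools, with a log2 difference of 0.77 (SE 0.34, unadjusted p = 0.0471, adjusted p = 1 by edgeR). Over single cells, high-vrest cells had 3.36 CPM in the lowest, 96.4 in the median and 205 CPM in the highest cell, against 4.74, 42.6 and 226 CPM in low-vrest cells, so the medians differed within ranges that overlapped almost wholly. An alternative chosen after the data were seen left out the 20 cells in which Slc17a7, Sst or Vip lay above Pvalb. In it the log2 difference was -1.11 for Kcnk3 and 0.33 for Kcnj9. Marker sums moved little with this split for PV cells (median 5737 CPM in high-vrest cells, against 5232 CPM in low-vrest cells) and more for other interneurons (234 CPM, against 425 CPM). The PV sum is led by Gad1 (median 3560 CPM over Pass cells, against 86.9 CPM for Pvalb). Log2 differences of single PV markers ran from -0.82 for Lhx6 to 0.57 for Pvalb. Those of all listed markers of other interneurons were negative, among them Sst (-2.62), Vip (-4.94), Cck (-0.82) and Cnr1 (-2.30), none past the test. The part of other interneurons in the result was not tested.

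Kcnj3 again lay on the same side in all 4 pools, as did 11.8% of all genes tested, with 52.6, 62.2, 66.1 and 49.7 CPM in high-vrest cells, against 51.7, 49.5, 42.1 and 49.2 CPM in low-vrest cells (log2 difference 0.25, SE 0.30, and -0.020 with limma on mean log2 levels). Kcnk1 had a log2 difference of -0.083 (SE 0.18). The median log2 difference of the 4 tested K2P members was -0.58 and that of the 4 Kir members 0.51, against 0.011 over all genes tested. All 4 K2P members had a negative and 3 of 4 Kir members a positive value, and all but Kcnk3 and Kcnj9 lay within 1 SE of 0. Over all genes tested, 7116 of 13970 were positive. The other genes of the families did not share this split. Of the 4 other K2P genes tested 3 were positive (median 0.42). Of the 7 other Kir genes and partners 3 were positive and 4 negative (median -0.027). Whether the relation to rm or vrest differs between the sexes was tested for each gene by an interaction term, and 0 of the 8 members passed for either label. Over all genes 1 passed for rm and 0 for vrest.

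The other genes of both families and the genes coupled to them, in 3 lists, gave 0 calls in all 3 comparisons. Among them, the 25 receptors and regulators of GIRK channels had 3 genes with an unadjusted p under 0.05 between the sexes, 1 for rm and 1 for vrest. Over all genes tested the shares were 5.51%, 5.34% and 3.36%. The 3 genes between the sexes were Oprm1, Htr1a and Npy1r, all at or near 0 in most cells. The rm gene was Sstr2 (median 0.463 CPM), lower in high-rm cells in all 4 pools (log2 difference -2.92, SE 0.82, unadjusted p = 0.0054, adjusted p = 0.907 by edgeR). The vrest gene was Gabbr2, the GABA-B subunit that couples to the G protein, with a log2 difference of 0.52 (SE 0.22, unadjusted p = 0.0459 by edgeR). It did not pass after adjustment and was lower in the high-vrest cells of female P42 (172 against 188 CPM). Its partner subunit Gabbr1 had a log2 difference of -0.15 (SE 0.21). Of the other Kir genes and partners, 1 had an unadjusted p under 0.05 between the sexes (Kcnj13, at or near 0 in most cells) and 1 for vrest. For vrest this was Abcc8, which was lower in high-vrest cells in all 4 pools, with a log2 difference of -1.38 (SE 0.48, unadjusted p = 0.0171, adjusted p = 1 by edgeR). All 7 tested genes of that list had a positive log2 difference for rm, with a median of 0.67, and 0 of them had an unadjusted p under 0.05. Over all genes tested, 7028 of 13985 were positive, with a median of 0.0031. Among the 7, only Kcnj11 and Abcc8 had a median level of at least 1 CPM. Errors were wide for genes near 0, as for Kcnj16 (2.04, SE 2.17) and Kcnj14 (0.67, SE 1.73). The other K2P genes had no gene with an unadjusted p under 0.05 in any of the 3 comparisons.

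The relation per cell to the labels was described with Spearman's rho over 49 cells for each label. For rm, 0 of the 8 tested members had a rho of 0.3 or more in size, where 4.76% of 13985 genes did. The value furthest from 0 was that of Kcnk2 (rho 0.25, Pearson r 0.26), higher than for 95.5% of genes. It was 0.17 and 0.33 in the female P40 and P42 pools and -0.091 and 0.34 in the male P35 and P36 pools. Kcnk1, the highest leak channel gene, had a rho of -0.099 and Kcnk3 of 0.082. Kcnj9 had a rho of 0.064 over all cells but -0.23 and -0.80 in the female pools and 0.34 and 0.60 in the male pools.

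For vrest, 1 of the 8 tested members had a rho of 0.3 or more in size, where 3.35% of 13970 genes did. This was Kcnj9, with a rho of 0.35 and a Pearson r of 0.30, higher than for 99.3% of genes. The rho was 0.36 and -0.19 in the female P40 and P42 pools and 0.35 and 0.51 in the male P35 and P36 pools, so 3 of 4 pools shared its sign, and the pool of 7 cells did not. Without the 2 cells farthest from the median of vrest it was 0.35. Given cm, a label that fell with rm over the same cells (rho -0.80) and with vrest (rho -0.35), it was 0.32, and given the total counts it was 0.36. With the values of the authors' normalized table, which leave depth in place, it was 0.18. It was also 0.18 without the 20 cells with Slc17a7, Sst or Vip above Pvalb. Without the male P36 pool it was 0.27. Kcnk3 had a rho of -0.13 with vrest and a negative value in all 4 pools (-0.38, -0.48, -0.25 and -0.0083). Without those 20 cells it was -0.38. The cells share animals and days, so these values carry no p.

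**Figure D4:**
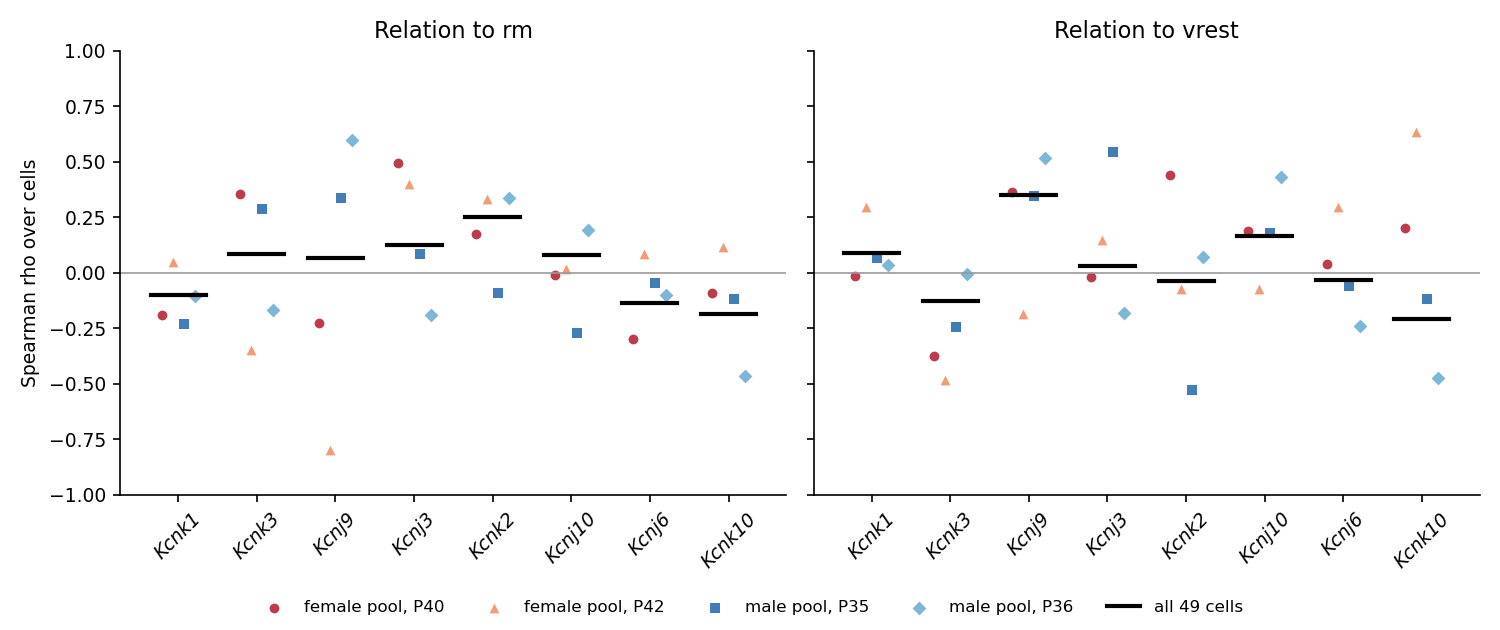
Spearman rho over cells between the CPM of each of the 8 tested genes and the labels rm (left) and vrest (right), within each pool (coloured points) and over all 49 cells (black bars). Pools often lie on both sides of 0. Kcnj9 with vrest has the highest value over all cells (0.35, and 0.18 without the 20 cells with Slc17a7, Sst or Vip above Pvalb), with 3 of 4 pools above 0.

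**Figure D5:**
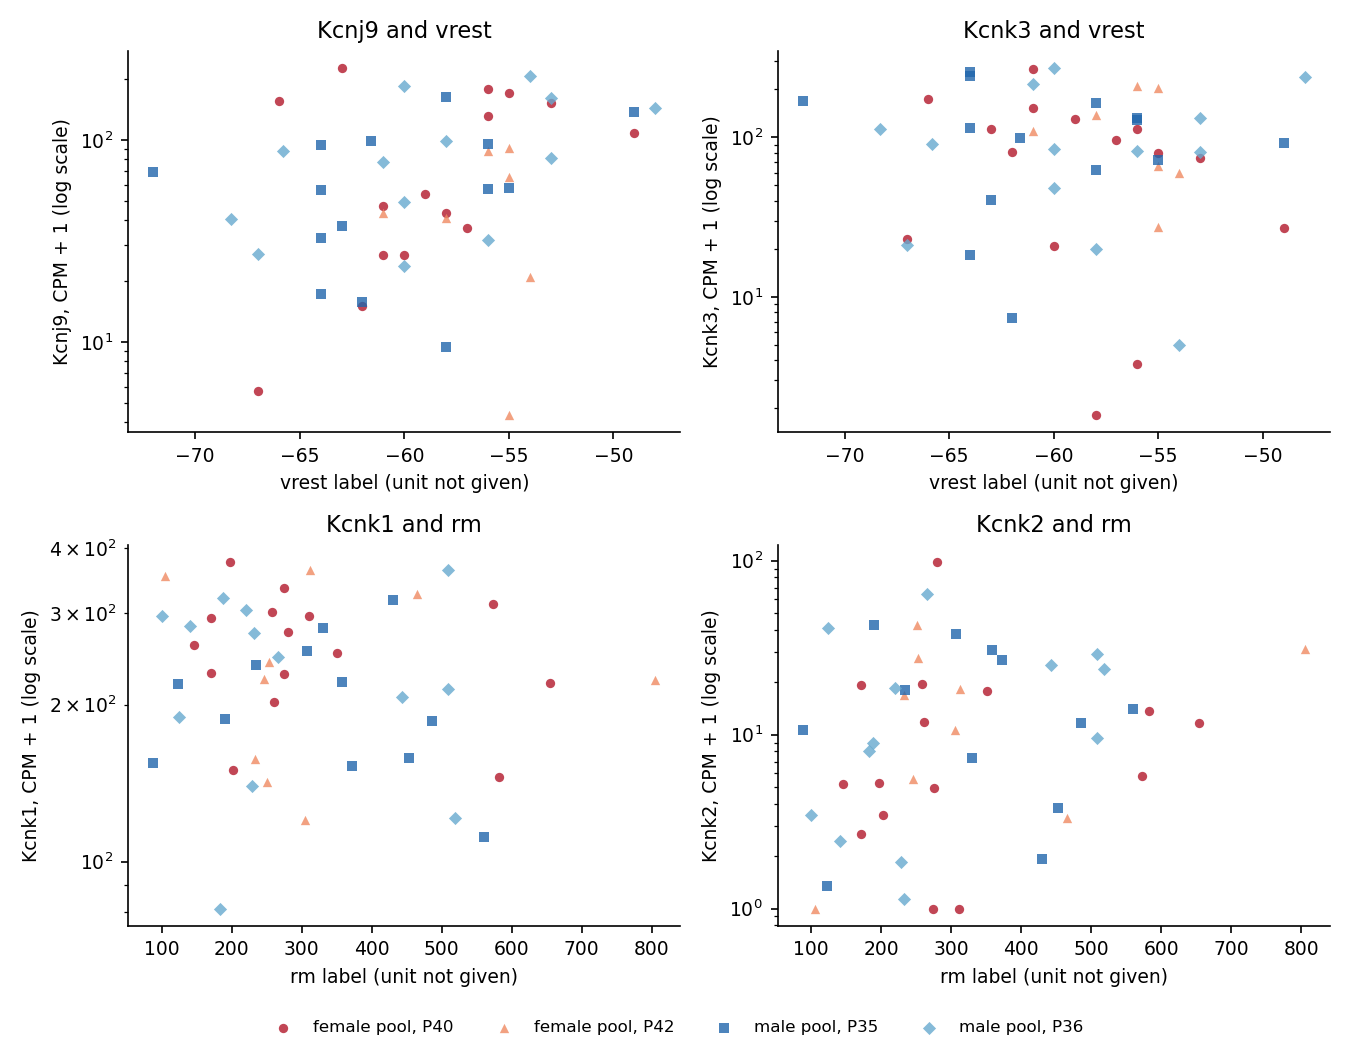
CPM + 1 (log axes) of single Pass cells against their labels, for Kcnj9 and Kcnk3 with vrest and for Kcnk1 and Kcnk2 with rm, coloured by pool. Cells with low and high levels are found across the range of each label, and rho over all cells is 0.35, -0.13, -0.099 and 0.25 in the order of the panels.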

How the data were processed

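RNA of single PV cells, taken up by patch pipette, was made into Nextera XT libraries, per the labels. The submitters' processing notes name STAR, GRCm38 and edgeR. Their versions, the counter, its annotation and its use of strand are not given in these sources. The count table that the authors deposited gives whole counts for 25648 genes and 58 cells, not normalized. The normalized table that the authors deposited holds a signal, the count times 1 factor per cell (0.866 to 1.32), and was used as an alternative only. The deposited neurexin isoform table was not used here.

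CPM is the count over the cell's own total, and lengths are exon unions of GENCODE vM21. Counts of Pass cells were summed into 4 pools of sex and age, or into 8 sums split within pools at the median rm or vrest. Pools are independent only if each animal was used at 1 age, so p-values measure the spread between these sums; replicate numbers only name cells. Genes that passed filterByExpr and had a count in 10 or more cells were tested with the quasi-likelihood F test of edgeR (version 4.0.16 under R 4.3.3, TMM, two-sided) with Benjamini-Hochberg adjustment, on the sex alone or with the pool as a block. SE is the log2 difference over the square root of F, and levels of sums are CPM on TMM-scaled library sizes. The fits were tested on simulated data. Alternatives used DESeq2 1.42.0, limma 3.58.1, cells thinned to 2000000 counts and the other settings given at the end. Binomial intervals are exact (Clopper-Pearson, 95%) and the limit for 0 cells is 3 cells of the total.

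The members and lists were chosen with earlier results of these data known. Named genes are the 9 members, the 2 most abundant per kb of each of 3 lists (other K2P genes; other Kir genes and ATP-sensitive channel partners; GIRK receptors and regulators), list genes past a test, the 2 genes most like each member with 1 CPM in 27 cells, and markers. Gabbr2, Gabbr1, Sstr2, Oprm1, Htr1a, Npy1r, Kcnj13, Kcnj5 and the cells given by number were chosen after seeing their values. A pool can hold several animals, so a split within a pool can also part animals, which the block does not remove. The 4 Fail cells were left out of all comparisons. 1 further gene list is not reported here.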

Additional observations from a re-analysis of the deposited data

Results flagged for a closer look

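Kcnj9 moved in opposite directions between the sexes with rm. It was lower in the high-rm cells of both female pools (log2 ratios of -0.13 and -1.07) and higher in those of both male pools (0.06 and 1.63). The interaction with sex was -1.44 (SE 0.66, unadjusted p = 0.0590, adjusted p = 1 by edgeR), so the difference did not pass the test, and 11.2% of 13985 genes showed such a pattern of opposite signs.

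Kcnk10 did so with vrest. It was higher in the high-vrest cells of both female pools (log2 ratios of 1.98 and 1.66, with at most 0.407 CPM on either side) and lower in those of both male pools (-4.97 and -3.63). These ratios were taken after a small constant was added to both sides. In female P42 the values were 0.0216 CPM against 0 CPM, from 1 count in female cell 13, so that ratio rests on the constant. The interaction was 6.66 (SE 3.12, unadjusted p = 0.0661, adjusted p = 0.994 by edgeR), and 12.96% of 13970 genes had opposite signs. In the male P35 pool it had 0.359 CPM in high-vrest cells, against 11.6 CPM in low-vrest cells, and a few cells held most of its counts.

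The 4 cells labelled Fail, 3 of them under 1 M counts (0.545 to 5.08 M), were in no comparison but held 7 of the 9 genes above the limit that a count of 0 allows (0.425 CPM of their summed counts). Their summed counts gave 169 CPM of Kcnk1, 78.4 of Kcnk3, 70.3 of Kcnj9, 18.7 of Kcnj3, 16.3 of Kcnk2, 11.6 of Kcnj10 and 2.13 CPM of Kcnk10. Kcnk1 was present in each of the 4 (136 to 337 CPM), Kcnj6 had 2 counts in all and Kcnk9 had 0.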

How the results depend on the processing

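No member passed an adjusted p of 0.05 in any of the 3 comparisons under any of the alternatives run (0 members called each time). The counts over all genes moved more. Between the sexes 2 genes were called, against 111 with no filter on low counts, 186 with DESeq2, 0 without the 20 cells in which Slc17a7, Sst or Vip lay above Pvalb, and 0 to 21 with 1 pool left out (21 without female P40, 0 without male P36). For rm 1 gene was called, against 299 with DESeq2, 0 with limma on mean log2(CPM + 1), 0 when only the cells at either end of rm were compared (the split into 3), 0 without the 20 cells, 0 with no replicate block (pool left out of the model) and 0 to 1 with 1 pool left out. For vrest 0 were called, also without the block, against 141 with DESeq2 and 0 to 1 with 1 pool left out. Pairing comes from the split within each pool, and cells were not paired between the sexes because replicate numbers only name cells.

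Several log2 differences changed sign, none of them past the test. Between the sexes, Kcnk1 was -0.091, Kcnj3 -0.26 and Kcnj6 1.48 without the 20 cells; Kcnj3 was -0.13 and Kcnj6 0.86 with cells thinned to an equal total, and -0.13 and 0.26 with limma. Without female cell 3, the cell with the most counts (22.8% of its pool), Kcnk3 was 0.025 and Kcnj6 0.0065. For rm, Kcnk1 was 0.033 when thinned, Kcnj6 was -0.29 and Kcnj9 -0.085 with limma, Kcnk3 was -0.20 and Kcnj9 -0.019 when split at the median over all cells, and Kcnk3 was -0.052 and Kcnj10 -0.90 in the split into 3. Without the 20 cells Kcnk10 was 0.073, Kcnj9 -0.11 and Kcnj10 -0.80, Kcnj9 was -0.11 without female cell 3, and Kcnk10 was 0.064 without the block. For vrest, Kcnk1 was 0.062 when thinned, 0.067 with limma and 0.071 without the 20 cells, Kcnj3 was -0.020 with limma, Kcnk2 was 0.070 and Kcnj6 0.98 in the split into 3, and Kcnj6 was 0.52 without the block and 0.093 without female cell 3. With 1 pool left out, the ranges that crossed 0 were -0.098 to 0.23 for Kcnk1, -1.04 to 0.48 for Kcnj6 and -0.81 to 0.50 for Kcnj9 between the sexes; -0.048 to 0.60 for Kcnj6, -0.39 to 0.50 for Kcnj9 and -0.76 to 0.77 for Kcnk10 with rm; and -0.20 to 0.0033 for Kcnk1, -0.71 to 0.67 for Kcnj6, -0.50 to 2.12 for Kcnj10 and -3.20 to 0.19 for Kcnk10 with vrest. Kcnk3 and Kcnj9 kept their sign with vrest under all 14 alternatives (-1.11 to -0.40, and 0.30 to 1.15). The cause of these changes was not tested.

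Of the 18 pairs of a gene and a label, 1 had a rho of 0.3 or more in size, against 0 with the deposited normalized values, 2 when thinned, 2 without the 20 cells and 1 to 2 with 1 pool left out. In the level order, Kcnj10 and Kcnj6 changed places with the longest transcript as length, with no length correction and without the 20 cells, and Kcnk10 and Kcnk9 tied at 0 when thinned. Alternatives that leave out the 20 cells or female cell 3, and those given cm or total counts, were chosen after seeing the data. Depth limits the shares of cells for Kcnj6, Kcnk9, Kcnj10 and Kcnk10, and 4 pools limit every test.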
